A study of Mus musculus with 6 samples.

Results

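The 10 genes described here act in the early steps of B-cell development, namely Rag1, Rag2 and Dntt of antigen receptor recombination, Vpreb1, Vpreb2, Vpreb3 and Igll1 of the surrogate light chain family, the transcription factors Ebf1 and Pax5, and the cytokine receptor Il7r. They were chosen by name, as the rows of the deposited table whose gene name equals one of these symbols, and all 10 were found among 34709 genes. Articular cartilage, the tissue that lines the joint surfaces, was taken from 18-month-old mice and profiled by sequencing of poly(A) RNA. The series held 3 libraries of knockout mice, labelled KO, and 3 of wildtype mice. Per the study's methods the mice of both genotypes were male littermates. How many mice went into a library was not given in the sources used here, so p-values measure the spread between these samples, which may be technical.

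B cells are made in the bone marrow. In precursor cells the RAG1 and RAG2 proteins cut the V, D and J segments of the immunoglobulin genes, and terminal transferase, encoded by Dntt, adds untemplated nucleotides where the segments are joined. A finished heavy chain is first displayed with the surrogate light chain, made of VpreB and the λ5 protein encoded by Igll1, and this complex is the pre-B-cell receptor (pre-BCR). Interleukin 7 sustains these cells in the mouse, and EBF1 and PAX5 switch on and maintain the B-cell programme. Healthy cartilage is not a site of this process.

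All 10 genes were lower in KO than in wildtype cartilage. Each KO library lay below each wildtype library for every one of the 10, as it did for 13.7% of all genes tested. The ratio of the group means ranged from 2.17-fold for Il7r to 6.59-fold for Vpreb2. Summed over the 10 genes, FPKM (fragments per kilobase of transcript, adjusted for library size) was 34.5, 27.5 and 29.3 in KO replicates 1 to 3, respectively, against 96.7, 95.4 and 84.9 in wildtype replicates 1 to 3. Values by library are given in this order throughout. The depth was 52268311 to 63331135 counts per library, of which 5490 to 6125 in KO and 14348 to 18217 in wildtype libraries fell on the 10 genes. In bulk tissue, fewer cells of a type and less RNA per cell cannot be told apart.

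Some facts of the series bear on these values. Between KO replicates 2 and 3 the median squared difference over genes was 5.77 times that of Poisson sampling, against 23.7 to 85.4 times for the other pairs of libraries, and these replicates were averaged, which left 2 KO and 3 wildtype samples. Over all tested genes, the first principal component (48.4% of the variance) placed the library labelled KO replicate 1 beside wildtype, at -13.5 against -20.2 to -16.1 for wildtype and 33.8 to 33.9 for the other KO libraries. The 10 genes gave another picture. The median absolute log2 difference over the 10 genes was 0.296 and 0.258 between KO replicate 1 and the other KO libraries, and 1.16 to 1.47 between KO replicate 1 and the wildtype libraries. The cartilage label was checked against cartilage genes. Prg4, which encodes lubricin, was at 402 to 1034 FPKM, and the matrix genes Chad and Comp were at 70.3 to 230.4 and 41.0 to 109.2 FPKM. Col2a1 of type II collagen was at 12.4 to 21.3 FPKM, Col9a1 at 0.460 or less and Matn3 at 0.202 or less. The 10 chondrocyte genes listed summed to 608 to 1436 FPKM. Summed over 12 genes of neutrophils and their precursors the level was 26699 to 62033 FPKM, and over 9 erythroid genes 24842 to 108321 FPKM.

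The recombination genes were examined first. Dntt (chr19:41029275-41059525, plus strand, GRCm38) was at 5.53, 4.65 and 5.09 FPKM in KO and at 14.7, 13.7 and 12.2 FPKM in wildtype libraries. The KO libraries were all below the lowest wildtype library, and the spread within each group was small beside the gap. The group means were 5.20 ± 0.470 (SD, n = 2) and 13.5 ± 1.25 FPKM (SD, n = 3), a 2.60-fold difference. By the quasi-likelihood test of edgeR over all tested genes, the log2 difference (KO minus wildtype, as throughout) was -1.35 ± 0.172 (SE) with an adjusted p of 0.111.

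Rag1 (chr2:101638282-101649501, minus strand) encodes the subunit of the recombinase that holds the catalytic site. Its level was 1.88, 1.89 and 1.69 FPKM in KO libraries, and 5.47, 6.03 and 4.26 FPKM in wildtype libraries. The groups did not overlap, and the KO libraries were closer to each other than the wildtype libraries were. The means were 1.84 ± 0.0643 (SD, n = 2) and 5.26 ± 0.905 FPKM (SD, n = 3), and the log2 difference was -1.50 ± 0.204 (SE; edgeR, adjusted p = 0.123). Rag2 (chr2:101624718-101632529, plus strand), the partner subunit, lies 5752 bases from Rag1 in the opposite orientation. It was at 0.885, 0.334 and 0.604 FPKM in KO and at 2.26, 2.07 and 1.53 FPKM in wildtype libraries, and KO replicate 1 was the highest of its group. The means were 0.677 ± 0.294 (SD, n = 2) and 1.95 ± 0.380 FPKM (SD, n = 3). Its log2 difference was -1.49 ± 0.373 (SE; edgeR, adjusted p = 0.181), the least precise of the 3 recombination genes. Leaving out KO replicate 1 moved it to -2.08, and leaving out the other KO libraries moved it to -1.06. A long annotated gene, B230118H07Rik, covers Rag1 on the same strand and Rag2 on the other, so that reads could be divided between them by the counting. Its own level was 2.61 FPKM in KO and 2.52 FPKM in wildtype cartilage, a log2 difference of 0.07.

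The promoter of Rag1 is shown because it held matches to both forms of the E-box, the short motif bound by E proteins such as E2A that act in early B cells. The window runs from 250 bases before to 50 bases after the RefSeq start of the gene, at chr2:101649483-101649782 on the minus strand (RefSeq, GRCm38.p6). Capitals mark CAGGTG or CAGCTG on either strand.
Rag1: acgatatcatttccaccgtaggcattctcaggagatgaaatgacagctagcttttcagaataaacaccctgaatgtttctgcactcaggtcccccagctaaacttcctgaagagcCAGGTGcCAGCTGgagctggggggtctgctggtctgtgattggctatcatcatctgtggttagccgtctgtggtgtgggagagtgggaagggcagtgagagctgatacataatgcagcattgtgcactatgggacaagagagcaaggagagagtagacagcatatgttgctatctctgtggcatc

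The genes of the surrogate light chain family came next. Vpreb1 (chr16:16868403-16870843) and Igll1 (chr16:16860671-16863985), which encode the 2 chains of the complex, are neighbours on the minus strand with 4417 bases between them. Vpreb2 (chr16:17980428-17981273, plus strand) is a near copy of Vpreb1 on the same chromosome, 1109584 bases away. The coding sequences of Vpreb1 and Vpreb2, 429 bases each, were identical at 420 positions (97.9%), with an unbroken identical run of 196 bases, so that reads of 1 gene could have been counted for the other and their separate values are uncertain. Vpreb3 (chr10:75943057-75949657, plus strand) is a more distant relative with 42.7% identity to Vpreb1.

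The promoter windows of Igll1, Vpreb1 and Vpreb2 are shown because these genes encode the parts of 1 complex and because each window held an E-box. They lie at chr16:16863936-16864235 (minus strand) for Igll1, chr16:16869206-16869505 (minus strand) for Vpreb1 and chr16:17980315-17980614 (plus strand) for Vpreb2, with the same source, build and capitals as for Rag1.
Igll1: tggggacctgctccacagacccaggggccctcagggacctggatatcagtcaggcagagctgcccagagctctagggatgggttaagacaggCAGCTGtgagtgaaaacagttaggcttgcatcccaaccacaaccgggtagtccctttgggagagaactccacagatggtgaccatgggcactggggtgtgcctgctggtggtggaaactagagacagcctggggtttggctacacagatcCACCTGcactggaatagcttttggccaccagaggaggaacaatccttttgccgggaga
Vpreb1: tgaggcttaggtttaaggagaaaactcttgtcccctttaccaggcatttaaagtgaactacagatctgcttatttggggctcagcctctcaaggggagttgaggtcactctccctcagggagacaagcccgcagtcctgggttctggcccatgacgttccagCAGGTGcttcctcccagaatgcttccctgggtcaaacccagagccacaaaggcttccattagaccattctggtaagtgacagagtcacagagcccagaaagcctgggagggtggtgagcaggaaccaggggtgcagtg
Vpreb2: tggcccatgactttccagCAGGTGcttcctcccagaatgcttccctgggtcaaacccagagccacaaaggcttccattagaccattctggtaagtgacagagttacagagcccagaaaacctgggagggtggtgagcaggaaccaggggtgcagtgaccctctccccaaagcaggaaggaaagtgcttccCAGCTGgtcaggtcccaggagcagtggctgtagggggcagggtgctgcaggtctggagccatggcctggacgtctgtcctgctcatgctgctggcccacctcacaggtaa
The Vpreb1 and Vpreb2 windows shared an unbroken run of 91 bases, which began 94 bases before the start of Vpreb1 and 238 bases before that of Vpreb2. With the windows set at that offset, 153 of 156 bases were the same. The marked motifs began 88 bases before the RefSeq start in Vpreb1, and 232 and 60 bases before it in Vpreb2. They began 158 and 8 bases before it in Igll1, and 135 and 128 bases before it in Rag1. None overlapped another. The RefSeq starts of Vpreb1 and Vpreb2 lie inside the gene positions given above, so these distances depend on the start used. The motifs at 88 bases in Vpreb1 and at 60 bases in Vpreb2 also lie inside those gene positions.

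These matches are a description of the sequence. CAGGTG, searched on both strands, was present in the windows of Rag1, Igll1, Vpreb1 and Vpreb2 and in 20.2% of all 32851 mouse windows of this length. CAGCTG, which reads the same on both strands, was present in those of Rag1, Igll1 and Vpreb2 and in 16.3% of all windows. One form or the other was found for 4 of the 10 genes and in 32.9% of all windows. The EBF1 core CCCNNGGG was found in the Igll1 window (13.7% of all windows), the FOXO core GTTTAC in an Ebf1 window (7.89%), and the Ikaros core TGGGAA in windows of Ebf1, Rag1 and Vpreb2 (25.6%), each searched on both strands.

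Vpreb3 was the most abundant of the 10 genes in both groups, at 11.8, 9.24 and 10.2 FPKM in KO and at 34.1, 34.8 and 32.6 FPKM in wildtype libraries. The wildtype libraries were within a narrow range, and the highest KO library was far below them. The means were 10.7 ± 1.45 (SD, n = 2) and 33.8 ± 1.11 FPKM (SD, n = 3), a 3.15-fold difference. The log2 difference was -1.63 ± 0.181 (SE; edgeR, adjusted p = 0.105).

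Igll1 was at 4.21, 2.78 and 2.55 FPKM in KO and at 11.1, 11.8 and 8.76 FPKM in wildtype libraries. Its neighbour Vpreb1 was at 3.94, 2.19 and 2.57 FPKM in KO and at 9.68, 12.1 and 8.42 FPKM in wildtype libraries. Both genes had their highest KO value in KO replicate 1 and their lowest wildtype value in wildtype replicate 3, and in neither did the groups overlap. The wildtype mean was 3.07-fold the KO mean for Igll1 (10.6 ± 1.60 against 3.44 ± 1.09 FPKM, SD) and 3.19-fold for Vpreb1 (10.1 ± 1.88 against 3.16 ± 1.10 FPKM, SD). The log2 difference was -1.59 ± 0.278 (SE) for Igll1 and -1.64 ± 0.325 (SE) for Vpreb1, each with an adjusted p of 0.166 by edgeR. Without KO replicate 1 the values were -2.02 and -2.12, and without KO replicates 2 and 3 they were -1.25 and -1.27. Vpreb1 overlaps 108 bases of Top3b on the other strand, and Top3b had a log2 difference of 0.25, opposite in sign.

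Vpreb2 had the widest difference and rested on few counts. It was at 0.233, 0.294 and 0.178 FPKM in KO libraries (11, 16 and 10 counts) and at 1.28, 1.005 and 2.36 FPKM in wildtype libraries (64, 47 and 114 counts). The wildtype libraries differed more among themselves than for any other of the 10 genes relative to their mean, with wildtype replicate 3 the highest. The small SD of the KO samples, 0.00259 FPKM around a mean of 0.234, arose from averaging KO replicates 2 and 3, which lay on either side of KO replicate 1. The wildtype mean was 1.55 ± 0.714 FPKM (SD, n = 3). The log2 difference was -2.63 ± 0.528 (SE; edgeR, adjusted p = 0.166), and it was -2.19 without wildtype replicate 3.

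**Figure D1:**
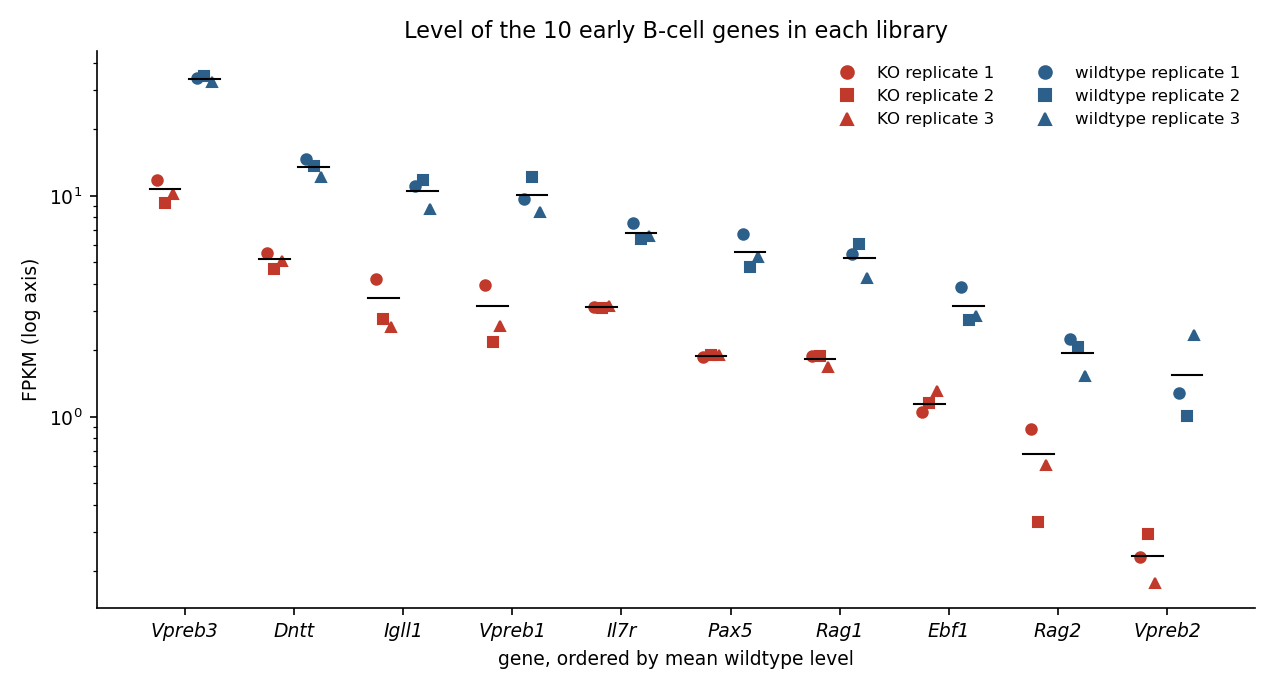
FPKM on a log axis of the 10 genes, ordered by mean wildtype level, with each library as a point (red KO, blue wildtype, shape by replicate number) and the group mean as a bar, KO replicates 2 and 3 entering as their average. Every KO library lies below every wildtype library for each gene, from Vpreb3 at 9.24 to 11.8 against 32.6 to 34.8 FPKM down to Vpreb2 at 0.178 to 0.294 against 1.005 to 2.36 FPKM. The same holds for 13.7% of all genes tested.

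The 2 transcription factors showed differences of a similar size. Ebf1 (chr11:44617317-45008091, plus strand), a factor that opens B-cell genes in lymphoid progenitors, was at 1.06, 1.15 and 1.31 FPKM in KO and at 3.88, 2.75 and 2.85 FPKM in wildtype libraries. Pax5 (chr4:44524757-44710487, minus strand), which holds cells to the B lineage, was at 1.86, 1.90 and 1.91 FPKM in KO and at 6.75, 4.74 and 5.30 FPKM in wildtype libraries. The KO libraries were nearly level for both genes, and wildtype replicate 1 was the highest for both. The means were 1.14 ± 0.122 and 3.16 ± 0.626 FPKM for Ebf1, and 1.88 ± 0.0275 and 5.60 ± 1.03 FPKM for Pax5 (SD, n = 2 KO and n = 3 wildtype samples). Log2 differences were -1.44 ± 0.188 (SE) for Ebf1 and -1.55 ± 0.170 (SE) for Pax5, with adjusted p of 0.111 and 0.105 by edgeR. Leaving out KO replicate 1 gave -1.39 and -1.59, so neither value turned on that library.

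Il7r (chr15:9505788-9530176, minus strand) encodes the α chain of the interleukin 7 receptor, which T-cell precursors and many mature T cells carry as well as early B cells. It was at 3.14, 3.12 and 3.17 FPKM in KO and at 7.51, 6.39 and 6.56 FPKM in wildtype libraries. Its KO libraries were nearly equal, the groups were well apart, and its 2.17-fold difference was the smallest of the 10. The means were 3.14 ± 0.00399 (SD, n = 2) and 6.82 ± 0.605 FPKM (SD, n = 3). As for Vpreb2, the KO SD was made smaller by averaging KO replicates 2 and 3, which lay on either side of KO replicate 1. The log2 difference was -1.10 ± 0.146 (SE; edgeR, adjusted p = 0.119).

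Taking the 10 together, the median log2 difference was -1.52, against -0.02 over the 15373 genes tested (a minimum of 0.5 FPKM on average, which all 10 passed). Vpreb2 passed only through its wildtype libraries, being under 0.5 FPKM in every KO library (0.178 to 0.294 FPKM). Its inclusion in the counts below therefore depends on the group in which it is high. At an adjusted p under 0.05 edgeR called 0 of the 10 genes with 5 samples, and 0% of all genes tested, while DESeq2 on the same samples called all 10 with a log2 difference below -1, against 0.82% of all genes. At an unadjusted p under 0.05 all 10 were lower, as were 933 of all genes (6.07%). A log2 difference below -1 was found for all 10 and for 321 of all genes (2.09%). Each KO library below each wildtype library was found for all 10 and for 2105 of all genes (13.7%).

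With the 6 libraries as labelled, which treats KO replicates 2 and 3 as separate, edgeR gave an adjusted p under 0.05 to 9 of the 10 genes, all lower in KO, where 1.25% of all genes were lower at that threshold. All 9 also had a log2 difference below -1, against 0.494% of all genes. Rag2 did not pass, with an adjusted p of 0.0557 by edgeR. Over the alternative fits the adjusted p of the 10 genes ranged from 8.63e-14 (DESeq2) to 0.487 (edgeR without wildtype replicate 3). Without the library labelled KO replicate 1, 8 of the 10 genes were called lower, against 0.507% of all genes. Without KO replicates 2 and 3, which leaves a single KO sample assumed to vary like the wildtype, 0 were called while all 10 were lower at an unadjusted p under 0.05 in edgeR, against 4.46% of all genes.

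**Figure D2:**
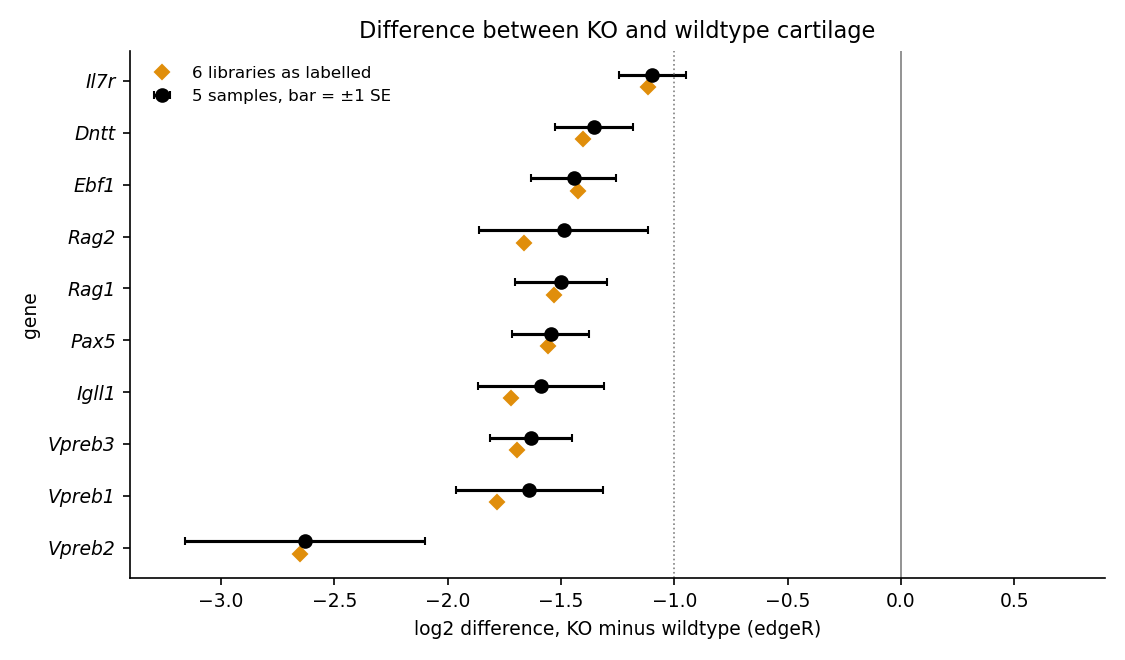
Log2 difference (KO minus wildtype, edgeR) of each gene, black with bars of 1 SE for 5 samples, and orange diamonds without bars for the 6 libraries as labelled. The dotted line marks -1 and the solid line 0, and all values lie below -1, from -1.10 for Il7r to -2.63 for Vpreb2 with 5 samples.

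The order of the levels was much the same in both groups. In wildtype cartilage Vpreb3 was highest, followed by Dntt, Igll1, Vpreb1, Il7r, Pax5, Rag1, Ebf1, Rag2 and Vpreb2, by mean FPKM. Igll1 and Vpreb1, Il7r and Pax5, Pax5 and Rag1, and Rag2 and Vpreb2 overlapped between neighbours over the wildtype libraries, and the other neighbours did not. In KO cartilage the order of the means was the same, Igll1, Vpreb1 and Il7r overlapped as neighbours, as did Pax5 and Rag1, while Rag2 and Vpreb2 were apart. The 10 genes also varied alike over the 5 samples. Pearson's r of a gene with the mean of the other 9 ranged from 0.894 for Vpreb2 to 0.998 for Dntt, a description over 5 samples that share the group difference.

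Some B-lineage genes outside the 10, but not all, were lower in KO as well, and the next comparison set the 10 genes against 2 that were. For each library the count was divided by the geometric mean of the counts of Cd79a and Cd79b, the signalling chains of the B-cell receptor. Cd79a was at 45.6, 26.1 and 26.3 FPKM in KO and at 98.3, 94.2 and 87.6 FPKM in wildtype libraries. Cd79b was at 45.5, 27.6 and 29.4 FPKM in KO and at 85.6, 85.9 and 83.3 FPKM in wildtype libraries. Both were lower in every KO library than in every wildtype library, and KO replicate 1 was the highest KO library for both. On this scale the libraries of the groups overlapped for 7 of the 10 genes, and the median difference of the log2 ratios was -0.23. Differences were -0.04 for Dntt, -0.17 for Rag1, -0.24 for Rag2, -0.31 for Igll1, -0.12 for Ebf1, -0.22 for Pax5 and 0.22 for Il7r.

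Vpreb1, Vpreb2 and Vpreb3 were the exceptions, lower in every KO library than in every wildtype library also relative to these genes. Over all genes tested but Cd79a and Cd79b the same held for 8 of 15371 (0.052%, these 3 included), on a scale whose reference genes were themselves lower in KO. The difference was -0.36 for Vpreb1 and -0.33 for Vpreb3. It was -1.24 for Vpreb2, whose log2 ratios were -8.45, -7.41 and -8.14 in KO and -7.09, -7.38 and -6.10 in wildtype libraries. The gap between KO replicate 2 and wildtype replicate 2 was narrow, and it rested on 16 and 47 counts. The gap for Vpreb3 was narrow too, from -2.19 in KO replicate 3 to -2.18 in wildtype replicate 1. That for Vpreb1 ran from -3.69 in KO replicate 3 to -3.61 in wildtype replicate 3, beside an SD of 0.236 over the wildtype libraries. Exact two-sided permutation tests over the 5 samples gave p of 0.1 (Vpreb3) to 1 for the 10 genes and 0.5 to 1 after Benjamini-Hochberg adjustment over them, where 0.1 is the smallest p that 2 against 3 samples allow. With 6 libraries the exact permutation p was 0.1 for Vpreb1, Vpreb2 and Vpreb3, again the smallest possible, and 0.333 after adjustment. The sign of the ratio difference was not the same for Dntt, Rag1, Ebf1 and Pax5 under all alternatives. Without KO replicate 1 the difference was positive for each of them (0.24 for Dntt). With Ms4a1, Cd22 and Cd72 as the reference it stayed negative for each of them (-0.20 for Dntt). The median over the 10 genes was 0.04 without KO replicate 1.

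**Figure D3:**
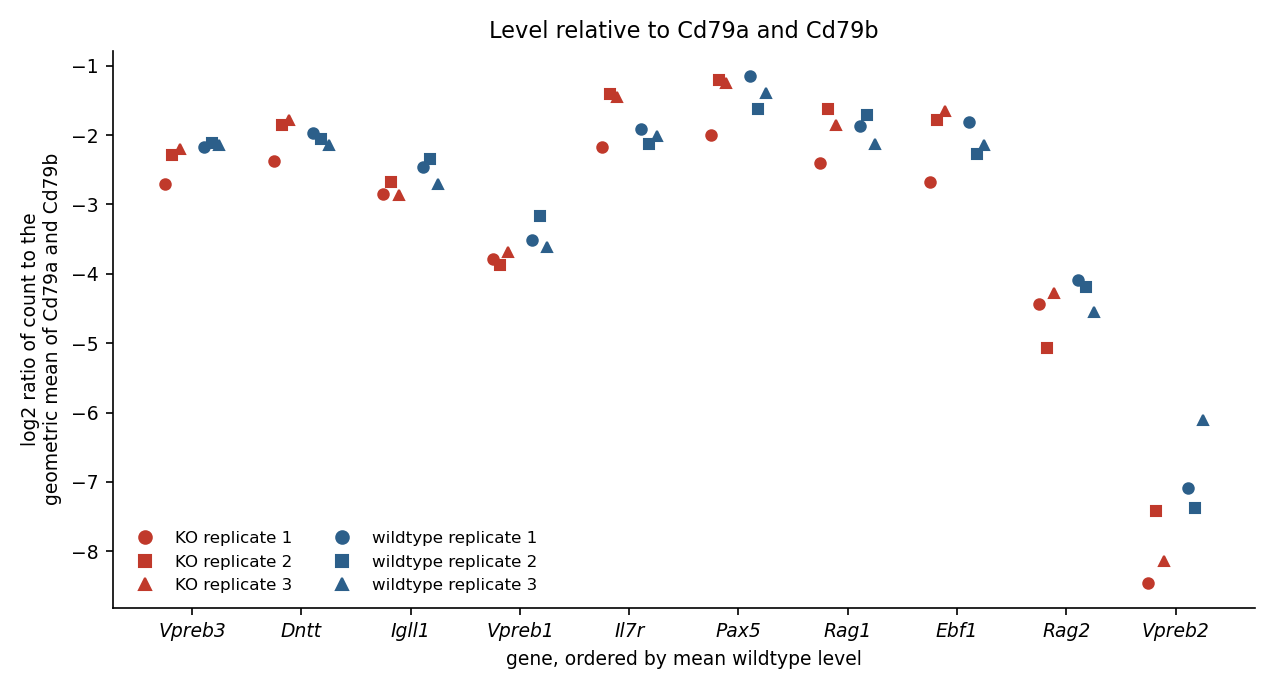
Log2 ratio of each gene's count to the geometric mean of Cd79a and Cd79b, with each library as a point (red KO, blue wildtype, shape by replicate number). The red and blue points overlap for all genes but Vpreb1, Vpreb2 and Vpreb3, and the Vpreb2 points spread from -8.45 to -6.10.

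The remaining genes of these pathways were described from fixed lists. Of 15 B-lineage transcription factors tested, 10 were lower and 5 higher in KO, with a median log2 difference of -0.52. With 6 libraries, edgeR's adjusted p was under 0.05 for 5 lower and 2 higher factors, and for 192 lower and 378 higher of all 15373 genes. Pou2af1, a coactivator of immunoglobulin genes, had a log2 difference of -1.19 ± 0.127 (SE), Spib -1.23 ± 0.133 (SE) and Bach2, a repressor active in B cells, -1.30 ± 0.193 (SE). The factors of the list with the largest positive values, named after their values were seen, were Spi1 (PU.1) at 0.73 and Erg at 0.53, both also active in myeloid or stem cells.

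The enzymes that repair and join the ends cut by RAG showed no common direction. Of 13 end-joining genes, 6 were lower and 7 higher, the median log2 difference was 0.06, and edgeR's adjusted p was under 0.05 for none of them with 5 samples or with 6 libraries, nor was that of DESeq2 for any, while 2 had an unadjusted p under 0.05. Those were Xrcc6 at -0.46 ± 0.136 (SE) and Xrcc5 at -0.42 ± 0.165 (SE), which encode the Ku proteins, and Polm, a polymerase related to Dntt, was at -0.39 ± 0.175 (SE). Most cell types use these enzymes.

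In the signalling chain below the pre-BCR, the lowest values were those of genes used mainly by B cells. Of 11 genes tested, 6 were lower and 5 higher, with a median log2 difference of -0.09. With 6 libraries, edgeR's adjusted p was under 0.05 for 4 genes, all lower, where 1.25% of all genes were lower at that threshold. The kinase Blk had a log2 difference of -1.30 ± 0.241 (SE), Cd79a -1.35 ± 0.259 (SE) and Cd79b -1.17 ± 0.228 (SE). The 5 higher genes, named after their values were seen, were Syk (0.02), Btk (0.10), Lyn (0.35), Ptpn6 (0.48) and Plcg2 (0.49). The kinases Syk, Btk and Lyn are also active in myeloid cells. With 5 samples, 5 genes of the list were lower and 3 higher at an unadjusted p under 0.05 in edgeR. Among all genes 6.07% were lower at that threshold, and 2106 of 15373 passed it in either direction.

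Most other genes of the interleukin 7 pathway were not lower in KO. Of 13 tested genes of interleukin 7 signalling, 3 were lower and 10 higher, with a median log2 difference of 0.13, and none had an adjusted p under 0.05 in edgeR with 5 samples or with 6 libraries or in DESeq2, while 1 lower and 1 higher gene had an unadjusted p under 0.05. Jak3, the kinase bound to the common γ chain, was at 0.62 ± 0.243 (SE), Socs2 at -0.57 ± 0.234 (SE) and Cish at 0.63 ± 0.314 (SE), the last 2 being inhibitors that STAT5 induces. Il7 itself was listed at 0.170 to 0.264 FPKM in KO and 0.373 to 0.635 FPKM in wildtype libraries and was under the minimum level.

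Genes of later B-lineage stages were mostly lower too, with smaller medians. The 12 genes of naive and mature B cells had a median log2 difference of -1.06, with 11 lower. Of the 12, 4 were under an adjusted p of 0.05 in edgeR with 6 libraries, all lower, against 1.25% of all genes. With 5 samples, 10 were lower at an unadjusted p under 0.05 in edgeR, against 6.07% of all genes. DESeq2 gave an adjusted p under 0.05 to 8, all lower, against 351 lower among all 15373 genes tested. Every KO library lay below every wildtype library for 10 of the 12, against 13.7% of all genes. Cd72 was at -1.20 ± 0.142 (SE), Fcmr at -1.29 ± 0.225 (SE) and Ighd at -1.57 ± 0.311 (SE). Ighm, named after its values were seen, was at -0.26 with overlapping groups. Of 7 plasma cell genes, 5 were lower and the median was -0.62. In the same fit of 6 libraries 2 passed, both lower, against 1.25% of all genes. These were Slamf7 at -0.75 ± 0.151 (SE) and Sdc1 at -0.65 ± 0.174 (SE), while Mzb1 was at -0.62 ± 0.191 (SE).

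Markers of other cell types were examined as well, and their part in the differences of the 10 genes was not tested. Rag1, Rag2, Dntt and Il7r also act in T-cell precursors. All 10 tested T-cell and thymocyte genes were lower in KO, with a median log2 difference of -0.53 and a summed level of 20.0 to 25.9 FPKM in KO and 32.2 to 40.3 FPKM in wildtype libraries. For T cells edgeR's adjusted p was under 0.05 for none with 5 samples or 6 libraries. With 5 samples, 3 were lower at an unadjusted p under 0.05 in edgeR, against 6.07% of all genes. DESeq2 gave an adjusted p under 0.05 to 2, both lower, against 351 lower among all 15373 genes. Every KO library lay below every wildtype library for 6 of the 10, against 13.7% of all genes. Cd2 was at -0.87 ± 0.243 (SE), Cd8b1 at -1.11 ± 0.314 (SE) and Cd3g at -0.68 ± 0.265 (SE).

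The 12 neutrophil and granulocyte precursor genes were all higher, with a median of 0.87, and their summed level was 50982 to 62033 FPKM in KO and 26699 to 43339 FPKM in wildtype libraries. With 6 libraries, edgeR's adjusted p was under 0.05 for 4 of them, where 378 of all 15373 genes were higher at that threshold. Prtn3 was at 1.15 ± 0.249 (SE), Mmp8 at 0.96 ± 0.216 (SE) and Elane at 0.87 ± 0.211 (SE), which encode enzymes of neutrophil granules. KO replicate 1 had the highest sum of the 6 libraries, most of it from S100a8 and S100a9 (named after their values were seen), at 16321 and 27817 FPKM. For Prtn3, Mmp8 and Elane it was between the wildtype and the other KO libraries, at 287, 256 and 575 FPKM.

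The 9 erythroid genes were all lower, with a median of -0.91. Their summed level was 24842 to 60549 FPKM in KO and 71500 to 108321 FPKM in wildtype libraries. With 6 libraries 1 passed, where 1.25% of all genes were lower at that threshold. Every KO library lay below every wildtype library for all 9, against 13.7% of all genes. Epb42, of the red cell membrane skeleton, was at -0.66 ± 0.156 (SE), Gata1, a transcription factor of the lineage, at -0.59 ± 0.164 (SE) and Alas2, of haem synthesis, at -0.91 ± 0.322 (SE). The 10 genes of osteoblasts and marrow stroma had a median of -0.49. With 5 samples, 3 were lower at an unadjusted p under 0.05 in edgeR, against 6.07% of all genes. With 6 libraries 1 passed, against 1.25% of all genes. For 4 of the 10 every KO library lay below every wildtype library, against 13.7% of all genes. Among them were Kitl at -0.55 ± 0.139 (SE), Lepr at -0.42 ± 0.138 (SE) and Cxcl12 at -0.63 ± 0.231 (SE), the last of which attracts B-cell precursors in marrow.

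Chondrocyte and proliferation genes had medians near 0. Of 8 chondrocyte genes tested, 3 were lower and 5 higher, with a median of 0.06, Chad at 0.67 ± 0.390 (SE), Col2a1 at -0.35 ± 0.231 (SE) and Prg4 at 0.62 ± 0.423 (SE). The summed level of the 10 listed genes was 1436, 633 and 641 FPKM in KO and 608 to 830 FPKM in wildtype libraries. KO replicate 1 was the highest of the 6 libraries for Chad, at 230 FPKM against 112 and 116 in the other KO libraries. It was also the highest for Prg4, at 1034 FPKM against 436 and 441. Of 10 proliferation genes, 6 were lower and 4 higher, with a median of -0.05, and Pcna was at -0.21 ± 0.178 (SE), Birc5 at -0.15 ± 0.156 (SE) and Aurkb at 0.12 ± 0.151 (SE). In both lists none had an adjusted p under 0.05 in edgeR with 5 samples or 6 libraries or in DESeq2, and none an unadjusted p under 0.05 with 5 samples.

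**Figure D4:**
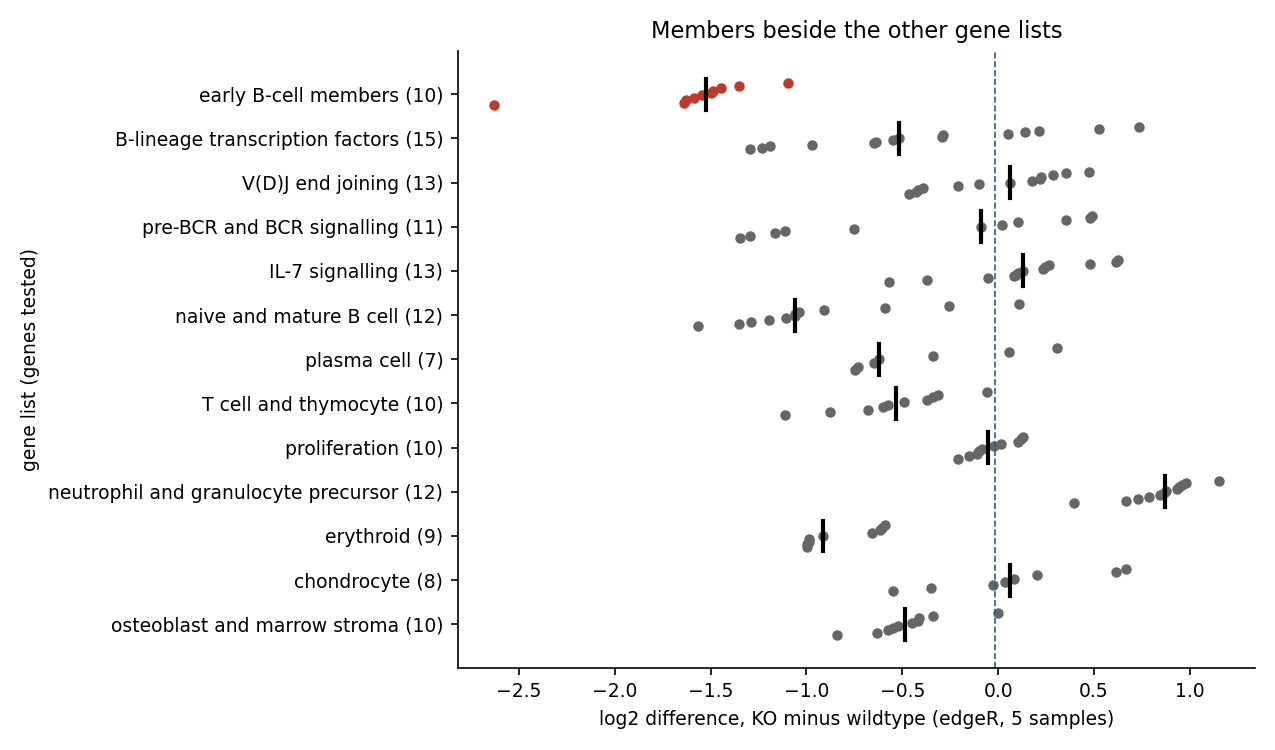
Log2 difference (KO minus wildtype, edgeR, 5 samples) of each tested gene, with 1 row per list, a black bar at the list's median and a dashed line at the median of all genes tested (-0.02). The 10 early B-cell genes in red have a median of -1.52, naive and mature B-cell genes -1.06, erythroid genes -0.91, and neutrophil genes 0.87.

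The genes outside all lists whose level followed the mean profile of the 10 most closely over the 5 samples were Slc1a5, a transporter of neutral amino acids (Pearson's r = 0.994), Mbtps1, a protease that processes membrane-bound factors (0.993), Zfand6 (0.993), Srxn1, an enzyme that restores oxidised peroxiredoxins (0.992), and Iglc2, a constant segment of the immunoglobulin λ chain (0.991), among 7519 genes that averaged 5 FPKM or more. This likeness is of the shape of the profile and takes no account of its size, and it was computed on log2 counts per library size, while the FPKM values of Mbtps1, at 7.88 to 8.76 in KO and 8.16 to 8.74 in wildtype libraries, overlapped between the groups. Log2 differences were -0.50 for Slc1a5, -0.04 for Mbtps1, -0.32 for Zfand6, -0.42 for Srxn1 and -0.41 for Iglc2, all smaller than for any of the 10 genes. Iglc2 has near copies, and its counts are uncertain in the same way as those of Vpreb1 and Vpreb2.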

How the data were processed

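RNA of 6 articular cartilage libraries was measured as strand-specific poly(A) libraries with molecular identifiers and paired reads of 150 bp. The submitters' processing notes name cutadapt 1.9, HISAT2 2.0.4, UMI-tools, StringTie 1.3.4d, DESeq2 and edgeR. The deposited FPKM values were scaled within each library by the authors. The deposited estimated counts were whole numbers, but the value 4 was found 6596 times, the value 3 only 4170 times and the value 5 only 2332 times, so a count was not taken as 1 read pair. Whether the counting used the strand was not given in the sources used here. Gene positions followed GRCm38. The knocked-out gene and 2 genes of the lists are not reported here, so the labels were not checked against the former. The ratio to B-lineage genes therefore used Cd79a and Cd79b, which had been listed as an alternative reference.

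KO replicates 2 and 3 were averaged (counts rounded). The 15373 genes that averaged 0.5 FPKM or more were tested by edgeR 4.0.16 (R 4.3.3) with TMM scaling and the quasi-likelihood test, with Benjamini-Hochberg adjustment over all of them. A gene was called at an adjusted p under 0.05 and an absolute log2 difference above 1. The fit was tested on simulated data. Total counts were 52268311 to 63331135. A count of 0 allows a level of up to 0.0574 CPM (3 counts in the shallowest library), which covers counting error only. Alternatives were the 6 libraries as labelled, other scaling, other filters on low values, DESeq2 1.42.0, limma 3.58.1 on log2(FPKM + 1) and log2(FPKM + 0.1), a replicate block and leaving out libraries. Named genes were the 10 studied, the 3 tested genes of each list with the smallest unadjusted p, and the 5 genes outside all lists, at a mean of at least 5 FPKM, with the highest r to the mean profile of the 10. The genes, lists and tests were chosen with earlier results of these data known. Among the lists, Ptcra of the T-cell list had no row in the table used here, and Lef1, Il7, Bcl11b, Matn3 and Col9a1 were under the minimum. Promoter windows came from RefSeq on GRCm38.p6, and coding sequences from GENCODE.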

Additional observations from a re-analysis of the deposited data

How the results depend on the processing

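All 10 genes kept a negative log2 difference in the 15 alternative fits, of which the minimum of 5 FPKM kept 4 of the 10, and the values ran from -2.84 (Vpreb2, without wildtype replicate 2) to -0.82 (Rag2, limma on log2(FPKM + 1)). The number of genes called did depend on the fit. With 5 samples edgeR called 0 of all genes, 0 of the 10 and 0 of the other pathway genes, with 2106 of all genes and all 10 at an unadjusted p under 0.05. The 6 libraries as labelled gave 140, 9 and 7 genes, no filter on low values gave 21, 5 and 2, and DESeq2 gave 196, 10 and 7. Leaving out 1 library gave 0 to 216 of all genes, 0 to 8 of the 10 and 0 to 5 pathway genes. The upper values came without KO replicate 1, and leaving out wildtype replicate 2 or 3 gave 1 of all genes each. Without KO replicates 2 and 3 there were 9 of all genes. The fits without KO replicate 1, and without KO replicates 2 and 3, had 1 KO sample left, which is assumed to vary like the wildtype.

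With the replicate number as a block on the 6 libraries, 0 genes and 0 of the 10 were called, with 2809 genes at an unadjusted p under 0.05 and adjusted p of 0.0841 to 0.103 for the 10 by edgeR. Same-numbered libraries did not deviate together (r of -0.14, -0.11 and -0.06), so the numbers were not taken to pair the samples. Depth limits Vpreb2 most, with 10 to 16 counts in the KO libraries.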
